A study of Drosophila melanogaster with 12 samples.

Results

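The comparison was between amos mutant and wild-type antennal discs of Drosophila melanogaster larvae in the third instar, taken from a larger RNA-seq study of olfactory development. Its members were the 6 libraries that the sample labels named as larval antennal discs, out of 12 in the series, and the other 6 came from adult antennae. The amos discs, numbered 1, 2 and 3, carried the amos3 allele, and the wild-type discs, numbered 1, 2 and 5, came from w1118 animals. Both genotypes were raised at 22°C on the same medium and light cycle, and larvae of both sexes were pooled. Each sample held 50 antennal discs that were cut away from the eye disc by hand, so a sample is a pool of animals and could carry neighbouring tissue. Nothing in the labels said whether the samples of a genotype came from separate cultures, and p-values therefore measured only the spread between these samples.

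The antennal disc is the larval primordium of the adult antenna, joined to the eye disc in 1 epithelial sheet. Amos and Atonal are proneural bHLH transcription factors, which select sensory organ precursors in the antenna: Amos those of the olfactory sensilla that house most odorant receptor neurons, and Atonal those of the coeloconic sensilla, of the Johnston's organ and, in the eye, of the first photoreceptors. Notch signalling limits the number of precursors, and pulses of the steroid hormone ecdysone time the growth and patterning of the discs.

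Reads counted on genes numbered 39247300 to 43984887 in amos discs and 26796503 to 27661261 in wild-type discs, so sequencing was deeper in every amos library. Levels are given as CPM, the reads of a gene scaled to a common library size of 1e6 reads counted on genes, always in the order amos discs 1, 2 and 3 and wild-type discs 1, 2 and 5. A floor of 3 counts corresponded to between 0.0682 and 0.0764 CPM in amos discs and between 0.108 and 0.112 CPM in wild-type discs, and covers counting error only. A gene was called where its p from the quasi-likelihood test of edgeR, adjusted over all genes tested by the Benjamini-Hochberg method, was under 0.05. A positive log2 fold change means a higher level in amos discs. In bulk samples, fewer cells of a type and less RNA per cell cannot be told apart.

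Of 8909 genes tested, 1176 were called (13.2%), of which 585 were higher (6.57%) and 591 lower (6.63%) in amos discs. The median log2 fold change of all genes tested was -0.00. Most called genes differed modestly: 779 were within 2-fold, while 153 were over 2-fold higher and 244 over 2-fold lower. The groups did not overlap for 3683 of the 8909 genes tested, among them all 1176 called genes. A lack of overlap therefore adds nothing to a call. The test was repeated with each library left out in turn, and calls kept or lost without a library refer to these 6 fits. The number of calls was 259 without amos 1, 452 without amos 2, 262 without amos 3, 201 without wild-type 1, 478 without wild-type 2 and 1376 without wild-type 5. Of the 114 genes that the naming rule chose and the test called, 39 kept the call in all 6 of these fits and 75 lost it in at least 1.

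The mutated gene could not check the labels. The amos gene had 0, 0 and 3 reads in amos discs and 2, 0 and 0 reads in wild-type discs, all at or under the floor. The libraries therefore do not show whether amos was expressed at the sampled stage, in wild-type discs either. A second gene could be read for the strain background. The white gene (w), an eye pigment transporter gene of which w1118 is a mutant allele, was at 3.26, 4.34 and 2.95 CPM in amos discs, against 0.0362, 0 and 0.183 CPM in wild-type discs (log2 fold change 5.53, standard error 0.84, adjusted p = 0.0132). Its level was above the floor in the 3 amos libraries and rested on at most 5 reads in a wild-type library. The w call was kept only without wild-type 2 and without wild-type 5 (adjusted p 0.0501 to 0.0603 without any other library). The study describes back-crossing to a common background only for its microarray flies. In every call reported here, an effect of the amos mutation and a difference in strain background therefore cannot be told apart.

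The libraries held uneven amounts of RNA from other tissues. A sum over 6 larval fat body genes (the Lsp1 and Lsp2 storage proteins and their receptor gene Fbp1 among them) was 316, 282 and 456 CPM in amos discs, against 63.3, 5156 and 487 CPM in wild-type discs. Wild-type 2 stood far above the other 5 libraries and wild-type 1 was the lowest, so the groups overlapped. A sum over 8 muscle genes was 82.8, 81.3 and 61.5 CPM in amos discs, against 140, 118 and 1008 CPM in wild-type discs. Here wild-type 5 was the high library, and the groups did not overlap. For 5 eye genes (eya, so, Optix, gl and sev) the sum was 48.3, 98.4 and 61.6 CPM in amos discs, against 65.1, 140 and 99.6 CPM in wild-type discs, with amos 2 and wild-type 2 the highest of their groups.

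The full marker lists also hold broadly expressed genes, and their sums spanned a narrower range. All 19 fat body, 23 muscle and 16 eye markers were detected in at least 1 disc library. The fat body sum was 856 to 897 CPM in amos discs and 588 to 5800 CPM in wild-type discs. The muscle sum was 519 to 762 CPM in amos discs and 898 to 1898 CPM in wild-type discs, and the eye sum 428 to 518 CPM in amos discs and 543 to 701 CPM in wild-type discs. Muscle and eye sums did not overlap between the genotypes. The eye sum includes ey and toy, and without them it was 323, 408 and 339 CPM in amos discs, against 339, 462 and 398 CPM in wild-type discs, with overlap. With the full sums as covariates, 252 genes were called beside the fat body sum, 545 beside the muscle sum and 11 beside the eye sum. With the narrower sums of 6, 8 and 5 genes, chosen after seeing the data, 373, 900 and 106 were called, and 159 beside the eye sum without ey and toy, also chosen after seeing the data. A covariate that moves with the genotype takes part of the genotype's difference with it, and with 6 libraries the 2 cannot be told apart.

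**Figure D1:**
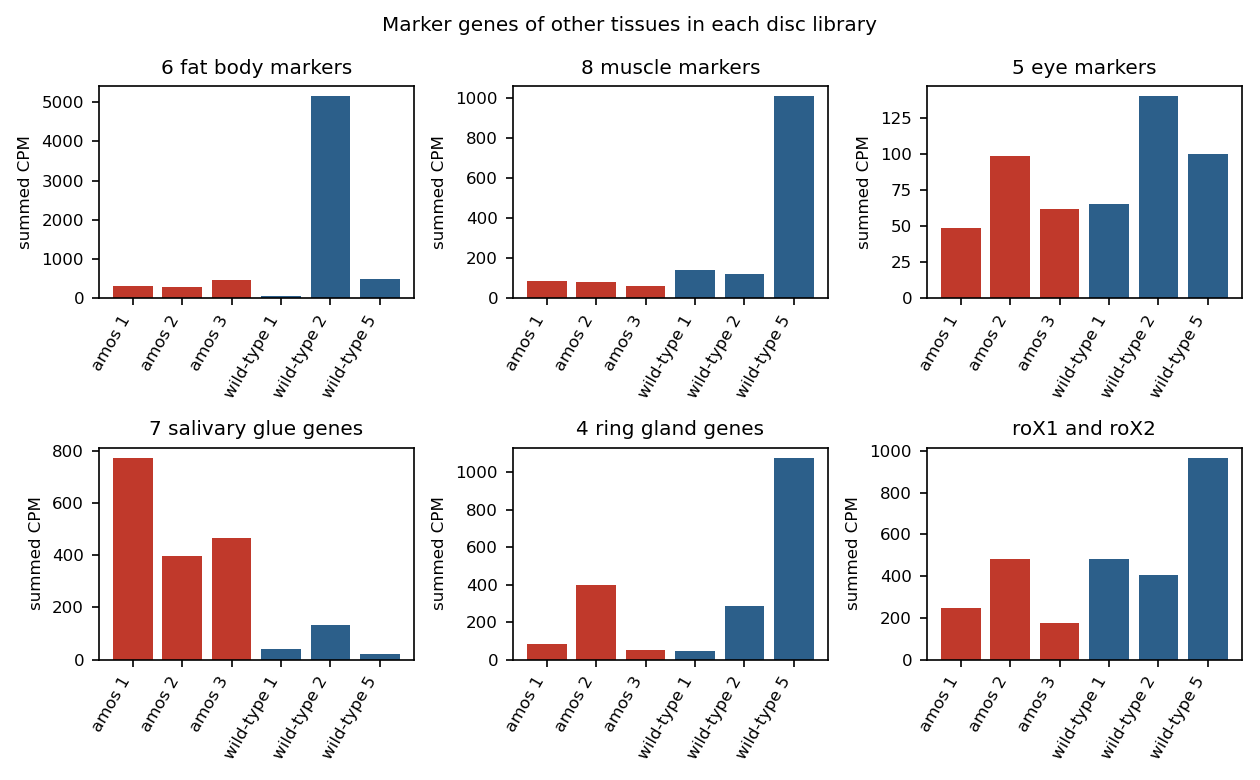
Summed CPM of marker genes of 6 kinds in each disc library (bars; amos discs in red, wild-type discs in blue, 1 bar a library). Fat body genes peak at 5156 CPM in wild-type 2, muscle and ring gland genes at 1008 and 1077 CPM in wild-type 5, and glue genes are between 399 and 776 CPM in amos discs, against at most 134 CPM in wild-type discs.

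Few of these markers were called. Of 14 fat body markers tested, 2 were lower in amos discs and none was higher, with a median log2 fold change of -1.43. The share called, 14.3%, was close to the 13.2% of all genes. The called genes were Tsf1, which encodes the iron carrier transferrin, and the lipid phosphatase gene Lpin. The Tsf1 level was 11, 9.21 and 10.8 CPM in amos discs, against 22.1, 20.5 and 35.9 CPM in wild-type discs (log2 fold change -1.33, standard error 0.23, adjusted p = 0.02). The Tsf1 call was kept only without wild-type 2 and without wild-type 5 (adjusted p 0.0546 to 0.0806 without any other library). The storage protein genes were not called. Lsp2 was at 79.6, 68.9 and 105 CPM in amos discs, against 13.1, 1129 and 83.3 CPM in wild-type discs (adjusted p = 0.298). Wild-type 2 was far above the other libraries and wild-type 1 well below them.

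Of 18 muscle markers tested, all had a log2 fold change below 0 (median -1.81), but only 1 was called (5.56%). It was sls, which encodes a titin-like sarcomere protein. Its level was 89.6, 109 and 89 CPM in amos discs, against 150, 170 and 192 CPM in wild-type discs (log2 fold change -0.81, standard error 0.12, adjusted p = 0.0128). The sls call was lost without amos 1 (adjusted p = 0.0611) or amos 3 (adjusted p = 0.0596). The muscle actin gene Act57B was at 33.2, 29.8 and 37.1 CPM in amos discs, against 58.5, 56.1 and 330 CPM in wild-type discs (adjusted p = 0.0967). The groups did not overlap, and wild-type 5 was far above the other 5 libraries.

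Salivary glue genes, which encode the secreted proteins that fix the pupal case to its substrate, differed in the opposite direction. The 7 Sgs genes summed to 776, 399 and 468 CPM in amos discs, against 40.1, 134 and 21.2 CPM in wild-type discs. Of 11 salivary gland markers tested, 4 were higher and none was lower, with a median log2 fold change of 2.55. The share called was 36.4%, beside 13.2% of all genes. Sgs3 was at 161, 133 and 131 CPM in amos discs, against 9.8, 31.9 and 6.94 CPM in wild-type discs (log2 fold change 3.15, standard error 0.57, adjusted p = 0.0222). The Sgs3 call was kept only without wild-type 2 and without wild-type 5 (adjusted p 0.0616 to 0.0813 without any other library). Sgs5bis had the largest difference among them, at 114, 36.8 and 33 CPM in amos discs, against 2.13, 7.99 and 1.24 CPM in wild-type discs (log2 fold change 4.02, standard error 0.83, adjusted p = 0.0306). The Sgs5bis call was kept only without wild-type 2 and without wild-type 5 (adjusted p 0.0641 to 0.0971 without any other library). The lowest amos library was above the highest wild-type library for Sgs3, Sgs5, Sgs5bis, Sgs7 and Sgs8, although Sgs5 was not called (adjusted p = 0.0704). The number of higher markers was 0 without amos 1, 2 or 3 or wild-type 1, 7 without wild-type 2 and 6 without wild-type 5. The secretory transcription factor gene CrebA was at 152, 155 and 226 CPM in amos discs, against 110, 157 and 47 CPM in wild-type discs and overlapped between the groups.

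The 15 glia markers summed to 1259, 1323 and 1351 CPM in amos discs, against 1463, 1499 and 1443 CPM in wild-type discs, without overlap. A large part of that sum came from Nrx-IV and Gli, which overlapped between the groups and were not called (adjusted p = 0.83 and 0.677). Nrx-IV averaged 552 CPM in amos discs and 575 CPM in wild-type discs, and Gli 359 and 342 CPM. Of 13 glia markers tested, only Gs2 was called, lower in amos discs (7.69%, adjusted p = 0.0313). The Gs2 call was kept only without wild-type 2 and without wild-type 5. The sum over 10 sex-linked dosage and sex determination genes, fru among them, also did not overlap. Several other tissue markers varied between libraries of 1 genotype. The steroid enzyme genes spok and sad mark the ring gland, which makes ecdysone, and spok was at 43.5, 250 and 25.3 CPM in amos discs, against 16.1, 144 and 627 CPM in wild-type discs (adjusted p = 0.53). Amos 2, wild-type 2 and wild-type 5 were high and the other 3 libraries low. The crystal cell gene PPO2, which encodes a prophenoloxidase of the blood, was at 325, 315 and 15.8 CPM in amos discs, against 244, 48.3 and 245 CPM in wild-type discs (adjusted p = 0.868), with amos 3 and wild-type 2 the low libraries. None of 13 hemocyte markers and none of 8 gut, Malpighian tubule and ring gland markers tested was called by edgeR or by DESeq2 in the 6 disc libraries without further terms, and none had an unadjusted p under 0.05 in edgeR. The dosage compensation RNA gene lncRNA:roX1, expressed in males, was at 229, 458 and 166 CPM in amos discs, against 471, 393 and 924 CPM in wild-type discs (adjusted p = 0.172), highest in wild-type 5 and lowest in amos 3.

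The Pax6 genes ey and toy, which start retinal development, were lower in amos discs, and so was dac, which acts in both the eye and the antennal segments. Among 16 retinal determination and early eye genes tested, these 3 were lower and 1 was higher, 25% called beside 13.2% of all genes. The toy level was 102, 99.9 and 81.8 CPM in amos discs, against 182, 205 and 196 CPM in wild-type discs (log2 fold change -1.03, standard error 0.09, adjusted p = 0.00328). The toy call was kept whichever library was left out. For ey, the values were 10.9, 9.46 and 6.47 CPM in amos discs, against 21.5, 33.7 and 30.2 CPM in wild-type discs (log2 fold change -1.66, standard error 0.24, adjusted p = 0.0117). The ey call was kept whichever library was left out. The dac level was 29, 47.4 and 32 CPM in amos discs, against 63.4, 89 and 101 CPM in wild-type discs (log2 fold change -1.21, standard error 0.24, adjusted p = 0.0277). The dac call was kept only without amos 2 and without wild-type 5 (adjusted p 0.0500172 to 0.104 without any other library). All 3 genes were below every wild-type library in all amos libraries.

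Genes that act later in the eye did not follow that order. The photoreceptor transcription factor gene gl was at 0.815, 10.6 and 1.28 CPM in amos discs, against 3.18, 18.4 and 4.23 CPM in wild-type discs (adjusted p = 0.562). The R7 receptor gene sev was at 6.8, 23.9 and 4.06 CPM in amos discs, against 6.65, 27.8 and 29.3 CPM in wild-type discs (adjusted p = 0.481). Both were high in amos 2 and wild-type 2, and sev was also high in wild-type 5, so the groups overlapped. The 1 higher gene, the rhodopsin gene Rh6, stayed under 1 CPM in every library. Of the 16 eye markers 11 are also members of this list, ey and toy among them, so the full eye sum takes up part of their own difference as a covariate, and the list was not read in that fit. With the sum of the 14 markers other than ey and toy as a covariate, toy kept its call (log2 fold change -0.97, adjusted p = 0.0231), while ey (-1.50, adjusted p = 0.0595) and dac (-0.98, adjusted p = 0.0579) lost theirs by edgeR. How far residual eye tissue entered these differences was not tested.

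Few proneural and neural precursor genes, the class to which amos belongs, were called. Of 26 tested, 1 was higher and 1 lower, 2 of 26 against 13.2% of all genes. The median log2 fold change of the list was 0.49. The gene ato was at 70.9, 72.3 and 101 CPM in amos discs, against 66.7, 58.3 and 47.6 CPM in wild-type discs (log2 fold change 0.52, standard error 0.19, adjusted p = 0.114). All amos libraries were above all wild-type libraries for ato, but the difference was not called by edgeR (by DESeq2, adjusted p = 0.0378).

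The called pair was phyl and Poxn. The gene phyl, which acts downstream of the proneural genes in precursors, was at 11.3, 12.2 and 14.9 CPM in amos discs, against 8.03, 8.62 and 6.35 CPM in wild-type discs (log2 fold change 0.76, standard error 0.19, adjusted p = 0.0452). The phyl call was lost whichever library was left out (adjusted p 0.0588 to 0.138). The Pax gene Poxn, which gives chemosensory bristles their identity, was at 0.713, 1.89 and 0.951 CPM in amos discs, against 4.81, 3.69 and 10.6 CPM in wild-type discs (log2 fold change -2.40, standard error 0.56, adjusted p = 0.0402). The Poxn call was kept only without wild-type 5 (adjusted p 0.0544 to 0.134 without any other library). The precursor marker sens was at 18.9, 23.4 and 31.1 CPM in amos discs, against 12.1, 15.6 and 2.63 CPM in wild-type discs (adjusted p = 0.18). Wild-type 5 was low for sens while the other wild-type discs lay just under the amos range. The Runx gene lz, which olfactory sensilla need, was at 11.8, 13.9 and 16.6 CPM in amos discs, against 8.97, 14 and 1.57 CPM in wild-type discs (adjusted p = 0.434), with wild-type 5 again the low library.

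In the Notch pathway, 2 of 30 genes tested were higher and 1 was lower, 10% called beside 13.2% of all genes. The higher genes belong to the Enhancer of split complex, the direct targets of Notch signalling. E(spl)m8-HLH, a bHLH repressor gene, was at 78.7, 76.1 and 117 CPM in amos discs, against 48.8, 42.4 and 23.8 CPM in wild-type discs (log2 fold change 1.26, standard error 0.30, adjusted p = 0.0433). The E(spl)m8-HLH call was kept only without wild-type 5 (adjusted p 0.0753 to 0.128 without any other library). E(spl)m4-BFM, a Bearded family gene of the same complex, was at 87.5, 92.3 and 127 CPM in amos discs, against 58.9, 54.1 and 30.5 CPM in wild-type discs (log2 fold change 1.12, standard error 0.28, adjusted p = 0.0461). The E(spl)m4-BFM call was kept only without wild-type 5 (adjusted p 0.0803 to 0.139 without any other library). Wild-type 5 was the lowest library for both genes.

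Other members of the complex were not called. E(spl)m5-HLH was at 11.1, 10.3 and 17.3 CPM in amos discs, against 7.66, 5 and 2.99 CPM in wild-type discs (adjusted p = 0.0692) without overlap. In contrast, E(spl)mbeta-HLH was at 143, 147 and 185 CPM in amos discs, against 173, 174 and 140 CPM in wild-type discs (adjusted p = 0.951) with overlap. The receptor gene N was at 716, 879 and 817 CPM in amos discs, against 875, 936 and 621 CPM in wild-type discs (log2 fold change 0.01, adjusted p = 0.982). The Bearded family gene Ocho, which lies outside the complex, went the other way, at 10.9, 11.6 and 10.7 CPM in amos discs, against 30.4, 27.4 and 37.6 CPM in wild-type discs (log2 fold change -1.51, standard error 0.13, adjusted p = 0.00328). The Ocho call was kept whichever library was left out. Its highest amos value was under its lowest wild-type value by more than 2-fold.

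Of 23 genes of the EGF receptor pathway tested, 1 was higher and 1 was lower, 8.70% called beside 13.2% of all genes. The scaffold gene ksr, which brings the kinases of the Ras pathway together, was at 104, 127 and 113 CPM in amos discs, against 61.8, 61.9 and 61.6 CPM in wild-type discs (log2 fold change 0.91, standard error 0.09, adjusted p = 0.00391). The ksr call was kept whichever library was left out. The feedback inhibitor gene kek1 was at 148, 164 and 166 CPM in amos discs, against 195, 222 and 205 CPM in wild-type discs (log2 fold change -0.36, standard error 0.09, adjusted p = 0.0433). The kek1 call was kept only without wild-type 5 (adjusted p 0.0949 to 0.119 without any other library). The receptor gene Egfr itself was at 315, 381 and 376 CPM in amos discs, against 341, 345 and 263 CPM in wild-type discs (adjusted p = 0.373) and overlapped between the groups.

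Among 13 Hedgehog pathway genes, 2 were higher and none was lower, 15.4% called and close to the 13.2% of all genes. The Hedgehog co-receptor gene ihog was at 560, 531 and 584 CPM in amos discs, against 350, 349 and 269 CPM in wild-type discs (log2 fold change 0.81, standard error 0.12, adjusted p = 0.0124). The ihog call was lost without amos 1 (adjusted p = 0.0573) or amos 3 (adjusted p = 0.0558). The engrailed paralogue gene inv was at 75.9, 77.6 and 78.6 CPM in amos discs, against 65, 62.2 and 58 CPM in wild-type discs (log2 fold change 0.34, standard error 0.07, adjusted p = 0.0271). The inv call was kept only without wild-type 5 (adjusted p 0.0638 to 0.107 without any other library). Among 20 Hippo and planar polarity genes, in and mats were higher and sd was lower, 15% called. The mats call was lost whichever library was left out (adjusted p 0.059 to 0.134). The planar polarity gene in (inturned) was at 90.1, 85.3 and 82.2 CPM in amos discs, against 62.8, 60.7 and 56.9 CPM in wild-type discs (log2 fold change 0.53, standard error 0.06, adjusted p = 0.00697). The in call was kept whichever library was left out. The Wnt, Dpp and JAK/STAT lists, of 28, 20 and 12 genes tested, had no call by edgeR. At an unadjusted p under 0.05 they had 2, 4 and 3 genes, and DESeq2 called 0 of the Wnt list, 4 of the Dpp list (1 higher, 3 lower) and 2 of the JAK/STAT list (both lower).

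Of 29 antennal identity and segment genes tested, 3 were lower and none was higher, and the median log2 fold change was 0.07. They were dac, given above, Sp1, a zinc finger gene of appendage growth, and sd, the TEAD factor gene through which Hippo signalling acts. Sp1 was at 72.8, 87.7 and 83.5 CPM in amos discs, against 106, 116 and 132 CPM in wild-type discs (log2 fold change -0.52, standard error 0.11, adjusted p = 0.0354). The Sp1 call was kept only without wild-type 5 (adjusted p 0.0694 to 0.104 without any other library). The sd level was 265, 278 and 269 CPM in amos discs, against 325, 339 and 338 CPM in wild-type discs (log2 fold change -0.29, standard error 0.06, adjusted p = 0.0336). The sd call was kept only without wild-type 5 (adjusted p 0.0721 to 0.118 without any other library). The share called, 3 of 29, was close to the 13.2% of all genes.

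Among lists with at least 20 genes tested, the cell cycle list had the largest share of genes called lower. Of 56 cell cycle and DNA replication genes tested, 20 were lower in amos discs and none was higher, against 6.63% of all genes lower. The log2 fold change was below 0 for 54 of the 56, with a median of -0.35. Map205 was among the 20, and the other 19 had log2 fold changes between -1.19 and -0.28.

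The called genes covered entry into mitosis, the spindle and DNA replication. The phosphatase gene stg (string), which drives entry into mitosis, was at 70.1, 97.6 and 66 CPM in amos discs, against 145, 130 and 263 CPM in wild-type discs (log2 fold change -1.19, standard error 0.30, adjusted p = 0.0479). The stg call was kept only without wild-type 5 (adjusted p 0.0568 to 0.158 without any other library). The mitotic kinase gene aurA was at 27.4, 29 and 25.3 CPM in amos discs, against 50.5, 48.2 and 59 CPM in wild-type discs (log2 fold change -0.93, standard error 0.10, adjusted p = 0.00498). The aurA call was kept whichever library was left out. Wild-type 5 was the highest library for both genes. The spindle motor gene ncd was at 107, 125 and 110 CPM in amos discs, against 187, 179 and 225 CPM in wild-type discs (log2 fold change -0.77, standard error 0.11, adjusted p = 0.0122). The ncd call was lost without amos 1 (adjusted p = 0.0582), amos 3 (adjusted p = 0.0566) or wild-type 1 (adjusted p = 0.0500172). The S phase cyclin gene CycE was at 60.1, 69.1 and 64.8 CPM in amos discs, against 85.5, 91.6 and 97.2 CPM in wild-type discs (log2 fold change -0.48, standard error 0.08, adjusted p = 0.02). The CycE call was kept only without amos 2 and without wild-type 5 (adjusted p 0.0588 to 0.0722 without any other library). The helicase gene Mcm2 of the replication complex was at 127, 120 and 115 CPM in amos discs, against 174, 150 and 216 CPM in wild-type discs (log2 fold change -0.56, standard error 0.13, adjusted p = 0.0435). The Mcm2 call was kept only without wild-type 2 and without wild-type 5 (adjusted p 0.105 to 0.14 without any other library). No amos library reached any wild-type library for these 5 genes.

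The count of lower cell cycle genes varied with the libraries used. It was 4 without amos 1, 7 without amos 2, 3 without amos 3, 2 without wild-type 1, 12 without wild-type 2 and 22 without wild-type 5. The median log2 fold change in these 6 fits stayed between -0.42 and -0.27. With marker sums as covariates 6 genes were lower beside the fat body sum, 6 beside the muscle sum and 1 beside the eye sum, with medians of -0.41, -0.17 and -0.34. Beside the eye sum without ey and toy 3 were lower, with a median of -0.36. After removal of a trend with gene length 9 were lower, and 15 with that trend centred. DESeq2 called 36 of the genes lower and 1 higher.

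**Figure D2:**
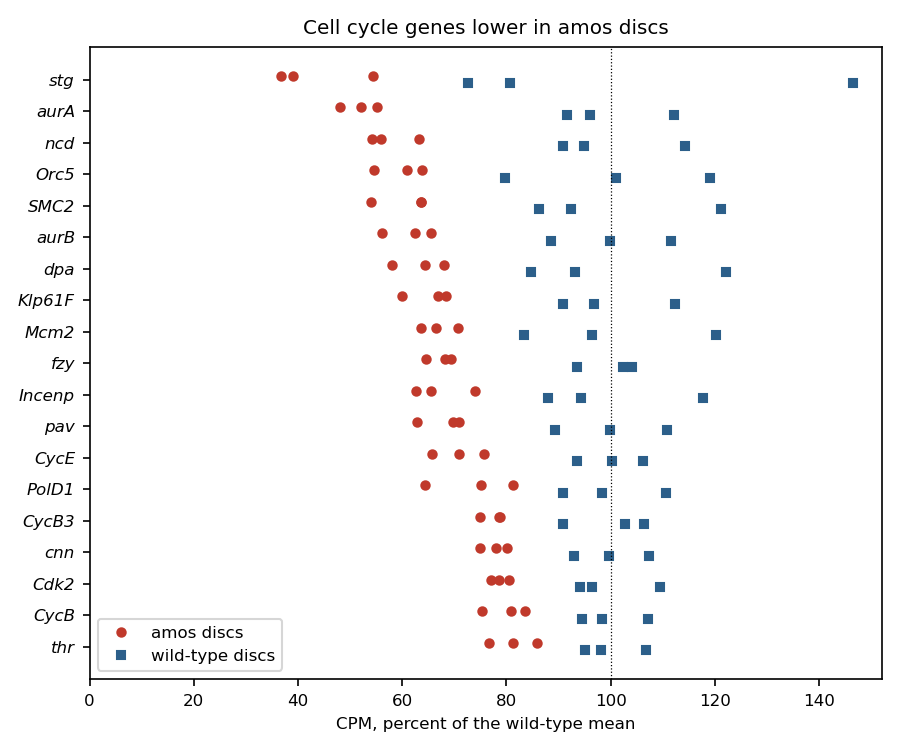
CPM of the 19 cell cycle genes called lower in amos discs, other than Map205, as a percentage of the wild-type mean (x axis, linear), with 1 point a library (amos discs as red circles, wild-type discs as blue squares). For each gene, such as stg, aurA and ncd at the top, the 3 amos libraries lie left of the 3 wild-type libraries, and the gap narrows towards thr at the bottom.

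Genes for the translation and respiration machinery leaned the other way by small amounts. Of 78 cytoplasmic ribosomal protein genes tested, 9 were higher and none was lower (median log2 fold change 0.07), and of 66 nuclear genes of oxidative phosphorylation, 8 were higher and none was lower (median 0.13), beside 6.57% of all genes higher. RpL41 was at 5057, 3543 and 4031 CPM in amos discs, against 2505, 2135 and 2833 CPM in wild-type discs (log2 fold change 0.77, standard error 0.16, adjusted p = 0.0306). The RpL41 call was kept only without amos 2 and without wild-type 5 (adjusted p 0.0689 to 0.0969 without any other library). The ATP synthase subunit gene ATPsynCF6 was at 199, 175 and 187 CPM in amos discs, against 119, 102 and 128 CPM in wild-type discs (log2 fold change 0.70, standard error 0.10, adjusted p = 0.0119). The ATPsynCF6 call was lost without amos 1 (adjusted p = 0.0573), amos 3 (adjusted p = 0.0511) or wild-type 1 (adjusted p = 0.0536). Neither gene overlapped between the groups.

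Gene length moved with these values. Over 8514 genes with a length, the log2 fold change correlated with exon length at a Spearman rho of -0.21, a description across genes that share libraries. After removal of a length trend from each library, 5 ribosomal protein genes were higher and 1 was lower, with a list median of 0.03, and 5 oxidative phosphorylation genes were higher and none lower, with a median of 0.09. With the trend centred on 0 in each library, a step chosen after seeing the data, the counts were the same and the medians were -0.03 and 0.03. The ribosomal protein median was thus turned by centring, and also by scaling on the ribosomal protein genes themselves, to -0.01. Without a library the count of higher ribosomal protein genes ranged from 2 to 12 and that of oxidative phosphorylation genes from 0 to 20, in both cases with the most calls without wild-type 5. A minor paralogue, RpS19b, had a difference of another size, at 8.71, 7.3 and 6.66 CPM in amos discs, against 0.94, 0.858 and 0.657 CPM in wild-type discs (log2 fold change 3.22, standard error 0.25, adjusted p = 0.00203). The RpS19b call was kept whichever library was left out. All 28 ribosome biogenesis genes tested fell short of the threshold in edgeR, with a median log2 fold change of -0.10. Of these, 9 had an unadjusted p under 0.05, and DESeq2 called 4 lower.

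**Figure D3:**
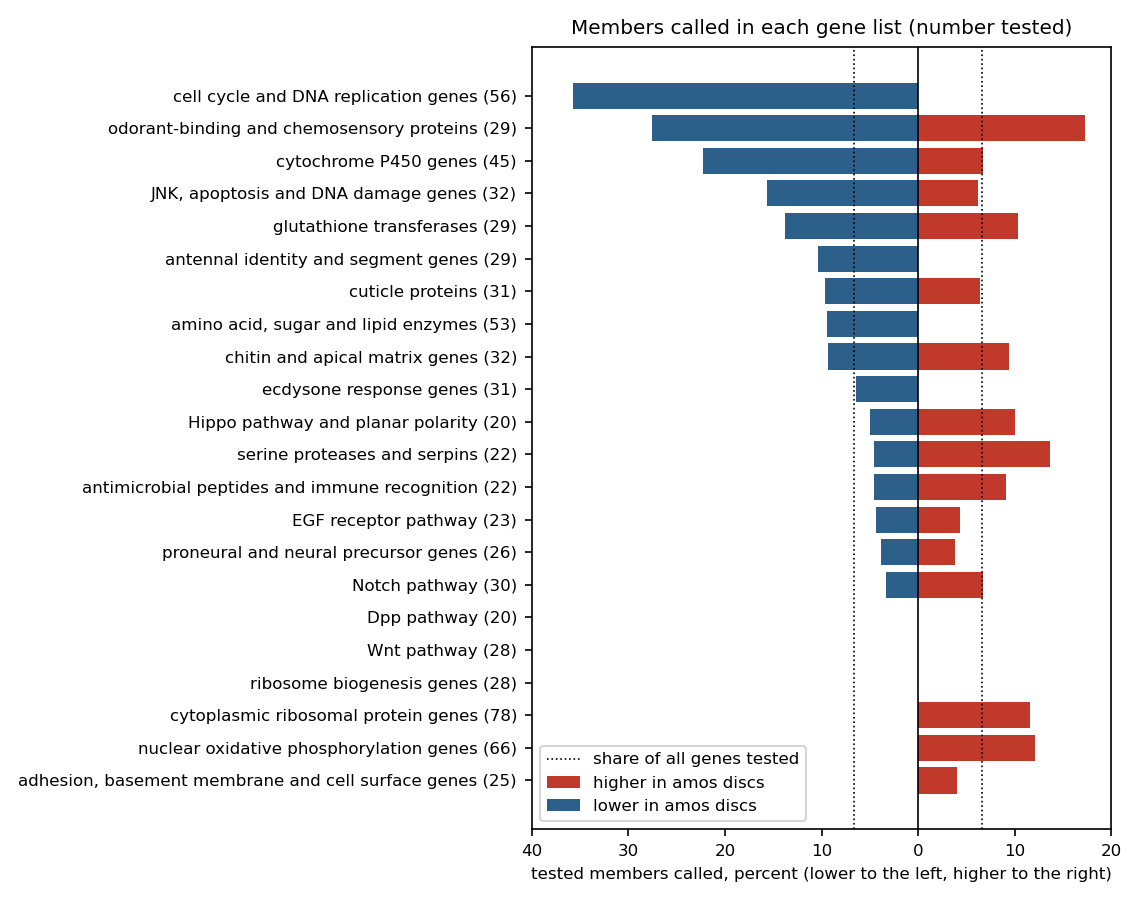
Percentage of tested members called lower (blue, to the left) and higher (red, to the right) in amos discs for 22 gene lists with at least 20 genes tested, whose number is in parentheses. Dotted lines mark the shares over all genes, 6.63% lower and 6.57% higher, and the cell cycle list, with 20 of 56 lower, reaches furthest to the left.

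The mitochondrial genome gave some of the largest decreases in the comparison. Of 11 mitochondrially encoded genes tested, 8 were lower and none was higher (72.7% called, beside 13.2% of all genes). The cytochrome b gene mt:Cyt-b was at 0.102, 0.0682 and 0.0928 CPM in amos discs, against 201, 186 and 336 CPM in wild-type discs (log2 fold change -11.36, standard error 0.40, adjusted p = 0.000138). The mt:Cyt-b call was kept whichever library was left out. The cytochrome oxidase subunit gene mt:CoII was at 2.85, 1.23 and 1.44 CPM in amos discs, against 1573, 1380 and 2737 CPM in wild-type discs (adjusted p = 0.000396). The ATP synthase subunit gene mt:ATPase6 was at 1.07, 1.89 and 1.32 CPM in amos discs, against 456, 419 and 696 CPM in wild-type discs (log2 fold change -8.49, standard error 0.35, adjusted p = 0.000258). Both kept their calls whichever library was left out. Reads counted on these 3 genes in amos discs were thus under 1% of the wild-type level, with each amos library low. Reads that did not align, or were not assigned to 1 gene, are not in these values. Whether RNA levels differed by as much was not tested.

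Among protein genes, the decreases followed the coding strand. The 7 tested protein genes of the plus strand in the annotation, mt:CoI, mt:CoII, mt:CoIII, mt:ATPase6, mt:Cyt-b, mt:ND2 and mt:ND6, were all lower. The retained share differed widely among them, 20.8% for mt:CoIII, 2.38% for mt:CoI and 0.0364% for mt:Cyt-b as amos mean over wild-type mean. The 3 tested protein genes of the minus strand were not called. The mt:ND4 gene was at 80.4, 74.7 and 71.6 CPM in amos discs, against 84.5, 76.5 and 130 CPM in wild-type discs (adjusted p = 0.269). Without overlap, mt:ND1 was at 128, 145 and 97.8 CPM in amos discs, against 187, 163 and 283 CPM in wild-type discs (adjusted p = 0.0791). With overlap, mt:ND5 was at 32.1, 39.4 and 28.3 CPM in amos discs, against 23, 21.6 and 40.2 CPM in wild-type discs (adjusted p = 0.53). The ribosomal RNA gene mt:lrRNA, also on the minus strand, was lower (log2 fold change -1.52, standard error 0.34, adjusted p = 0.037). The mt:lrRNA call was kept only without wild-type 2 and without wild-type 5 (adjusted p 0.0738 to 0.116 without any other library).

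Summed over strands, the 8 plus-strand protein genes were at 541, 431 and 382 CPM in amos discs, against 6134, 5328 and 9863 CPM in wild-type discs. The 4 minus-strand protein genes were at 241, 259 and 198 CPM in amos discs, against 295, 261 and 453 CPM in wild-type discs. The same order appeared in the adult antennae of the series, where amos animals had 0.120% of the wild-type level of mt:Cyt-b, 0.235% of mt:CoII and 72.4% of mt:ND4. The labels do not say whether the genotypes shared a mitochondrial background.

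**Figure D4:**
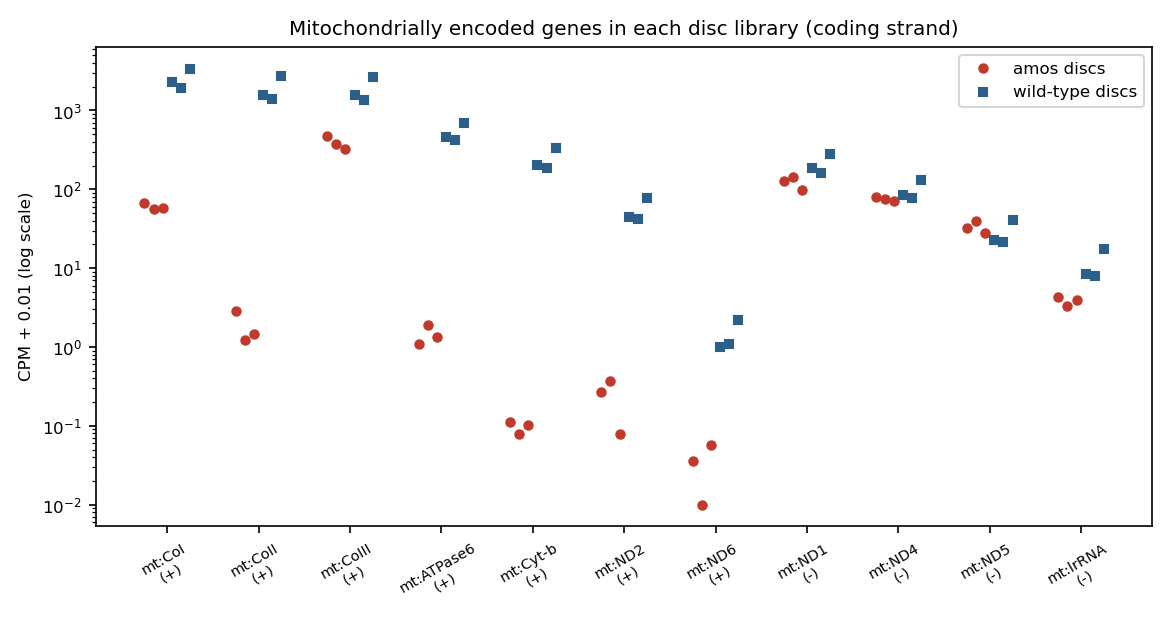
CPM + 0.01 on a log axis for the 11 mitochondrially encoded genes tested, with the coding strand in parentheses and 1 point a library (amos discs as red circles, wild-type discs as blue squares). Plus-strand genes on the left are lower in every amos library, down to about 0.1 CPM for mt:Cyt-b, while the minus-strand genes mt:ND4 and mt:ND5 overlap.

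Reads counted on several nuclear genes were close to absent in 1 genotype. Map205, which encodes a microtubule-associated protein that binds Polo kinase, had no read in any amos disc and was at 499, 481 and 378 CPM in wild-type discs, at least 6340-fold lower in amos discs from the floor of 3 counts per library. In amos discs the glutathione transferase gene GstE1 had at most 2 reads in a library, against 25.3, 25 and 61.1 CPM in wild-type discs, at least 520-fold lower. The sodium channel gene ppk13 was at 0.051, 0.0682 and 0.0232 CPM in amos discs, against 32.1, 24.7 and 100 CPM in wild-type discs, at least 733-fold lower from the same floor. The genes CG32318 and CG33509 showed the same all-or-none pattern, with at most 2 reads in an amos library. In wild-type discs CG32318 was at 7.01, 6.83 and 11.2 CPM and CG33509 at 17.9, 15.5 and 54.1 CPM. All 5 genes kept their calls whichever library was left out. CG31371, the last of the 15 largest decreases, was at 0.051, 0 and 0 CPM in amos discs, against 2.24, 1.42 and 3.5 CPM in wild-type discs.

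Genes whose counted reads were near absence in wild-type discs formed the opposite set. Cpr92A, which encodes a chitin-binding cuticle protein, was at 17.1, 17.2 and 13.9 CPM in amos discs, against 0.0362, 0 and 0 CPM in wild-type discs, at least 146-fold higher in amos discs. The antisense RNA gene asRNA:CR43767, whose reads cannot be told from those of its partner where strand was not counted, was at 19.8, 23.4 and 22.2 CPM in amos discs, against 0, 0 and 0.0365 CPM in wild-type discs, at least 198-fold higher. The gene CG30428 was at 36.6, 39.5 and 38.3 CPM in amos discs, against 0, 0.149 and 0.0365 CPM in wild-type discs (log2 fold change 9.22, standard error 0.46, adjusted p = 0.00039). In all 3 cases the amos libraries lay close together, and each gene kept its call whichever library was left out. The gene krimp, which acts in the piRNA pathway of the germ line, was at 15.5, 11.7 and 3.5 CPM in amos discs, against 0.145, 0.336 and 0.584 CPM in wild-type discs (log2 fold change 4.85, standard error 0.73, adjusted p = 0.013). Its lowest amos value, in amos 3, was still above every wild-type value. The krimp call was lost without amos 1 (adjusted p = 0.0573) or wild-type 1 (adjusted p = 0.0542).

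The remaining genes of the 15 largest increases were CR43086, CR43671, CG34436, CG14332, CG9021, CG42834, Cyp4e2, w, CG33346, CG7900 and CG9550, with log2 fold changes between 4.86 for CG9550 and 9.38 for CR43086. Of these, CG9021 was at 24.8, 20 and 53.7 CPM in amos discs, against 0.289, 1.38 and 0.073 CPM in wild-type discs, with amos 3 the highest library. The CG9021 call was lost without amos 1 (adjusted p = 0.0557), amos 3 (adjusted p = 0.0511) or wild-type 1 (adjusted p = 0.0585). CG7900 was at 35.2, 31.7 and 40 CPM in amos discs, against 0.94, 0.597 and 1.31 CPM in wild-type discs. CR43671, Cyp4e2, CG7900 and CG9550 kept their calls whichever library was left out. CG34436, CG42834 and CG33346 lost theirs in 4 of these fits, CG14332 in 3 and CR43086 in 2. Their roles were not annotated in the files used here, apart from those of Cyp4e2 and w.

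The P450 family, enzymes that oxidise hormones and foreign compounds, had 10 of 45 tested genes lower and 3 higher, beside 13.2% of all genes called. The median log2 fold change of the family was -0.79. Cyp4e2 was at 95.6, 79.5 and 86.6 CPM in amos discs, against 1.16, 3.06 and 1.1 CPM in wild-type discs (log2 fold change 5.64, standard error 0.38, adjusted p = 0.00138). The Cyp4e2 call was kept whichever library was left out. Cyp310a1 was at 7.9, 8.73 and 3.04 CPM in amos discs, against 41, 33.1 and 71.8 CPM in wild-type discs (log2 fold change -2.88, standard error 0.46, adjusted p = 0.016). The Cyp310a1 call was lost without amos 1 (adjusted p = 0.0689) or wild-type 1 (adjusted p = 0.0542). Cyp9c1 was at 73.4, 69.3 and 46.2 CPM in amos discs, against 148, 127 and 286 CPM in wild-type discs (log2 fold change -1.56, standard error 0.34, adjusted p = 0.0344). The Cyp9c1 call was kept only without wild-type 2 and without wild-type 5 (adjusted p 0.0744 to 0.116 without any other library). Wild-type 5 was the highest library for Cyp310a1 and Cyp9c1. The number of lower P450 genes was 0 without amos 1 and without wild-type 1, 3 without amos 2, 2 without amos 3, 6 without wild-type 2 and 10 without wild-type 5. The median without wild-type 5 was -0.31. Among the lower genes, Cyp6w1 was at 0.739, 0.614 and 0.719 CPM in amos discs, against 1.7, 2.91 and 2.81 CPM in wild-type discs. The wild-type mean was only 0.0576% of its level in adult wild-type antennae.

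Glutathione transferases, which conjugate glutathione to reactive compounds, were called in both directions, 3 higher and 4 lower of 29 tested (24.1% called, beside 13.2% of all genes). GstE8 was at 5.12, 3.41 and 2.25 CPM in amos discs, against 0.253, 0.224 and 0.438 CPM in wild-type discs (log2 fold change 3.55, standard error 0.46, adjusted p = 0.00929). The GstE8 call was lost without wild-type 1 (adjusted p = 0.0500172). GstD9 was at 26.4, 19.9 and 16.1 CPM in amos discs, against 69.2, 58.8 and 123 CPM in wild-type discs (adjusted p = 0.0151). The GstD9 call was kept only without wild-type 2 and without wild-type 5 (adjusted p 0.0500172 to 0.0626 without any other library). Of 15 UDP-glycosyltransferases, which add sugars to small molecules, 3 were higher and 2 lower (33.3% called). Ugt317A1 was at 45.3, 36.9 and 42.2 CPM in amos discs, against 14.5, 13.9 and 9.09 CPM in wild-type discs (log2 fold change 1.75, standard error 0.19, adjusted p = 0.00547). The Ugt317A1 call was kept whichever library was left out. Ugt301D1 was at 1.32, 1.2 and 1.21 CPM in amos discs, against 6.11, 5.11 and 6.46 CPM in wild-type discs (log2 fold change -2.22, standard error 0.22, adjusted p = 0.00438). The Ugt301D1 call was kept whichever library was left out. Neither of the last 2 overlapped between the groups.

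Among 22 serine protease and serpin genes tested, 3 were higher and 1 was lower (18.2% called, beside 13.2% of all genes), all of them serpins, which inhibit serine proteases. Spn47C was at 57.6, 48.2 and 50.5 CPM in amos discs, against 4.63, 2.2 and 2.81 CPM in wild-type discs (log2 fold change 4.03, standard error 0.27, adjusted p = 0.00138). The Spn47C call was kept whichever library was left out. Spn42De was at 32.8, 29.2 and 34 CPM in amos discs, against 5.21, 5.56 and 8.18 CPM in wild-type discs (log2 fold change 2.36, standard error 0.19, adjusted p = 0.00255). The Spn42De call was kept whichever library was left out. Both were separated by a wide gap, with every amos library over 3-fold above every wild-type library.

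Ecdysone response genes set 1 library apart from the other 5. That library was wild-type 5, and the genes included Hr3 and Hr4, which encode nuclear receptors and are switched on by ecdysone. Hr3 was at 63.1, 74.3 and 202 CPM in amos discs, against 92.6, 146 and 0.365 CPM in wild-type discs. Hr4 was at 94.6, 92.6 and 205 CPM in amos discs, against 53.7, 104 and 0.146 CPM in wild-type discs. The secreted protein gene ImpE2, induced by ecdysone in discs, was at 3354, 2941 and 4750 CPM in amos discs, against 2700, 3575 and 142 CPM in wild-type discs. The repressor gene Blimp-1 was at 95.2, 97.4 and 174 CPM in amos discs, against 53.4, 72.3 and 0.438 CPM in wild-type discs. In all 4 genes wild-type 5 was far below the other 5 libraries, amos 3 was the highest, and the genotypes were not called apart (adjusted p between 0.389 for Blimp-1 and 0.804 for Hr3).

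Of 31 ecdysone response genes tested, 2 were lower and none was higher, beside 13.2% of all genes called. The nuclear receptor gene ftz-f1, which follows the fall of an ecdysone pulse, was at 4.84, 7 and 2.18 CPM in amos discs, against 26.6, 25.9 and 85.2 CPM in wild-type discs (log2 fold change -3.28, standard error 0.64, adjusted p = 0.0268). The ftz-f1 call was kept only without wild-type 2 and without wild-type 5 (adjusted p 0.0569 to 0.106 without any other library). The chitinase gene Cht7 was at 23.4, 26.3 and 12.3 CPM in amos discs, against 74.3, 53 and 128 CPM in wild-type discs (log2 fold change -2.03, standard error 0.40, adjusted p = 0.0273). The Cht7 call was kept only without wild-type 2 and without wild-type 5 (adjusted p 0.0644 to 0.0993 without any other library). Both were highest in wild-type 5 and remained above every amos library in wild-type 1 and 2. The receptor gene EcR was at 107, 124 and 104 CPM in amos discs, against 163, 166 and 280 CPM in wild-type discs (adjusted p = 0.0544), also without overlap. No gene of the list was called without amos 1, without amos 3 or without wild-type 1. The list had 1 lower gene without amos 2, 3 higher and 2 lower genes without wild-type 2, and 1 higher and 3 lower genes without wild-type 5. The stage of the larvae within the third instar was not given for each sample, and its part in the differences was not tested.

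**Figure D5:**
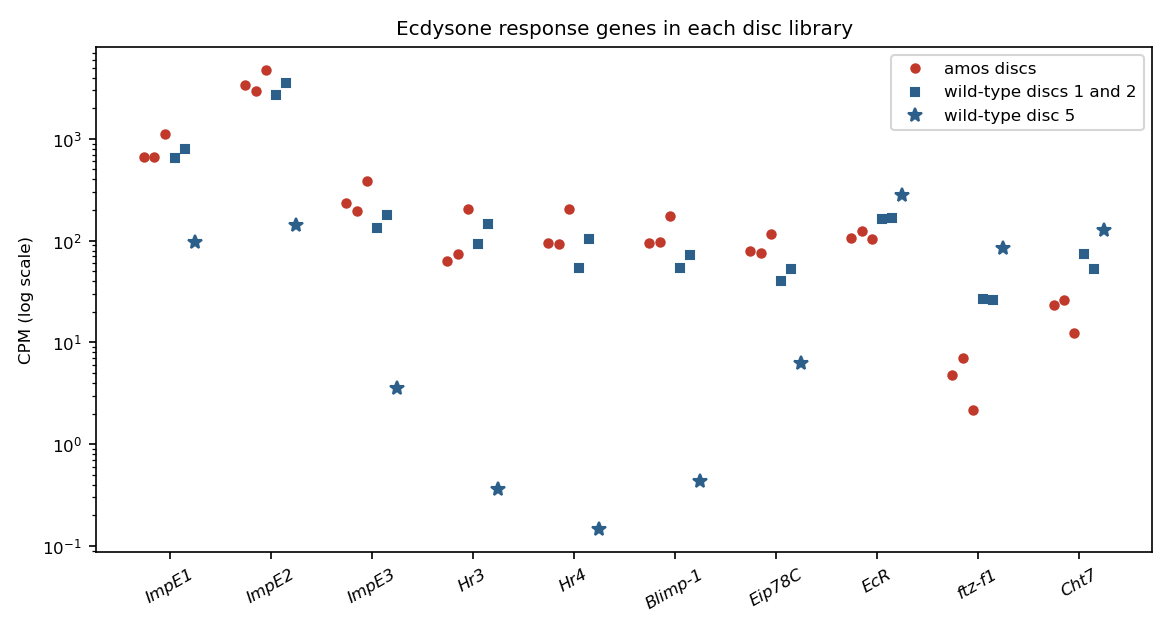
CPM on a log axis of 10 ecdysone response genes in each disc library (amos discs as red circles, wild-type discs 1 and 2 as blue squares, wild-type disc 5 as a blue star). Wild-type 5 lies lowest for the genes from ImpE1 to Eip78C, with 0.146 CPM for Hr4, and highest for EcR, ftz-f1 and Cht7.

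The pigment gene yellow-c and the behaviour gene fru, known for its male-specific forms, showed the ftz-f1 pattern. The yellow-c level was 4.87, 5.41 and 3.01 CPM in amos discs, against 18.9, 15.6 and 70.5 CPM in wild-type discs (log2 fold change -2.97, standard error 0.64, adjusted p = 0.0338). The yellow-c call was kept only without wild-type 2 and without wild-type 5 (adjusted p 0.0614 to 0.121 without any other library). The fru level was 43.3, 59 and 20.1 CPM in amos discs, against 138, 118 and 381 CPM in wild-type discs (log2 fold change -2.37, standard error 0.58, adjusted p = 0.0448). The fru call was kept only without wild-type 5 (adjusted p 0.0574 to 0.142 without any other library). Amos libraries lay below wild-type 1 and 2, and wild-type 5 was the highest.

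Cuticle and chitin genes were called in both directions. Of 31 cuticle proteins tested, 2 were higher (Cpr92A and Pcp) and 3 lower (Cpr51A, Cpr49Ah and Ccp84Aa), with 99 more of the 130 listed genes too low to test. The share called, 16.1%, was close to the 13.2% of all genes. Cpr51A was at 21.8, 16.3 and 16.2 CPM in amos discs, against 76.1, 64.8 and 121 CPM in wild-type discs (log2 fold change -2.25, standard error 0.25, adjusted p = 0.00622). The Cpr51A call was kept whichever library was left out. Pcp was at 6.8, 3.91 and 2.57 CPM in amos discs, against 0.868, 0.746 and 0.913 CPM in wild-type discs (log2 fold change 2.40, standard error 0.41, adjusted p = 0.0181). The Pcp call was kept only without amos 3 and without wild-type 5 (adjusted p 0.0521 to 0.0723 without any other library). Of 32 chitin and apical matrix genes, 3 were higher and 3 lower (18.8% called). The chitin deacetylase gene serp, also listed as a tracheal marker, was at 292, 308 and 351 CPM in amos discs, against 220, 203 and 215 CPM in wild-type discs (log2 fold change 0.59, standard error 0.10, adjusted p = 0.0171). The serp call was kept only without amos 1 and without wild-type 5 (adjusted p 0.0502 to 0.0591 without any other library).

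Stress and damage genes gave 2 higher and 5 lower of 32 in the JNK, apoptosis and DNA damage list, 21.9% called beside 13.2% of all genes. The initiator caspase gene Dronc was at 154, 125 and 158 CPM in amos discs, against 92.4, 92.2 and 55.1 CPM in wild-type discs (log2 fold change 0.88, standard error 0.21, adjusted p = 0.0445). The Dronc call was kept only without wild-type 5 (adjusted p 0.0697 to 0.14 without any other library). The stress response gene Xrp1 was at 317, 395 and 322 CPM in amos discs, against 495, 495 and 675 CPM in wild-type discs (log2 fold change -0.67, standard error 0.16, adjusted p = 0.0402). The Xrp1 call was kept only without wild-type 5 (adjusted p 0.0619 to 0.135 without any other library). The DNA end-binding gene Ku80 was at 20.8, 18.6 and 19.4 CPM in amos discs, against 29.8, 27.5 and 29.5 CPM in wild-type discs (log2 fold change -0.54, standard error 0.08, adjusted p = 0.0124). The Ku80 call was lost without amos 3 (adjusted p = 0.0554) or wild-type 1 (adjusted p = 0.0669). The relaxin-like hormone gene Ilp8, which damaged discs secrete to delay maturation, was low in both groups, at 0.433, 0.273 and 0.162 CPM in amos discs, against 1.74, 1.27 and 1.28 CPM in wild-type discs (log2 fold change -2.28, standard error 0.45, adjusted p = 0.0273). The Ilp8 call was kept only without wild-type 5 (adjusted p 0.0601 to 0.0941 without any other library). The small heat shock gene Hsp26 was at 274, 229 and 384 CPM in amos discs, against 115, 125 and 45.8 CPM in wild-type discs (log2 fold change 1.65, standard error 0.40, adjusted p = 0.0443), 1 of 2 higher among 18 heat shock and chaperone genes (11.1% called). The Hsp26 call was kept only without wild-type 5 (adjusted p 0.0667 to 0.134 without any other library).

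Chemosensory genes of the adult antenna were detected in the discs, several of them at trace levels. Of 29 odorant-binding and chemosensory protein genes tested, 8 were lower and 5 higher (44.8% called, beside 13.2% of all genes). Of 7 odorant receptor genes, 3 were lower (42.9% called). The binding protein gene Obp83a was at 0.0255, 0 and 0 CPM in amos discs, against 6.36, 7.17 and 7.56 CPM in wild-type discs, at least 98.4-fold lower in amos discs from the floor of 3 counts per library. Its neighbour Obp83b was at 0.0255, 0 and 0 CPM in amos discs, against 3.76, 3.99 and 4.16 CPM in wild-type discs, and lush, which encodes a pheromone-binding protein, was at 0.0255, 0.0227 and 0 CPM in amos discs, against 2.31, 3.47 and 2.85 CPM in wild-type discs. The co-receptor gene Orco, which all odorant receptors need, was at 0.0255, 0.0455 and 0.0232 CPM in amos discs, against 1.37, 2.16 and 2.3 CPM in wild-type discs. Each was called (adjusted p = 0.00144, 0.00255, 0.00305 and 0.00271) and kept its call whichever library was left out. Obp28a was at 1.86, 1.05 and 1.3 CPM in amos discs, against 26, 31.6 and 28.1 CPM in wild-type discs (adjusted p = 0.000467). It also kept its call in every such fit. The higher genes were Os-C, Obp19d, Obp59a, Obp56d and Phk-3. Os-C was at 112, 102 and 111 CPM in amos discs, against 67.5, 87.4 and 81.8 CPM in wild-type discs (adjusted p = 0.0357). Its call was kept only without wild-type 2 and without wild-type 5.

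The trace levels of Obp83a, Obp83b, lush and Orco stood in a similar ratio to the adult antennae of the series. As a share of the mean level in adult wild-type antennae, wild-type discs held 0.0675% for Obp83a, 0.066% for Obp83b, 0.0786% for lush and 0.0664% for Orco. Genes of other families with large decreases had shares in the same range. The transferase gene GstE4 was at 0, 0 and 0 CPM in amos discs, against 3.69, 5.04 and 4.71 CPM in wild-type discs, and its wild-type share was 0.0662%. Jhedup, a juvenile hormone esterase duplicate, was at 0, 0.0682 and 0.0464 CPM in amos discs, against 7.12, 10.4 and 10 CPM in wild-type discs, and its wild-type share was 0.0693%. Over the 37 genes above 1000 CPM in adult wild-type antennae and under 1% of that in wild-type discs, the median share was 0.07% and the quartiles were 0.066% and 0.122%. Obp28a, with a wild-type share of 0.303%, lay above the upper quartile. For the amos libraries, whose adults had little Obp83a (36.6 CPM, against 10413 CPM in wild-type adults), the share for Obp83a was 0.0232%. It rested on 1 read in amos 1 and none in amos 2 or 3. Over the 39 genes that met the same limits in amos adults and discs, the median share was 0.0895%. The quartiles of these genes were 0.0454% and 0.423%. Exchange of reads between libraries was not tested.

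Among called genes, 38 were under 1% of the adult level in their higher genotype, 28 of them lower and 10 higher in amos discs. Without such genes, a filter chosen after seeing the data, 569 genes were higher and 557 lower, and the binding protein list had 1 higher and 2 lower. The 2 lower ones were Obp56a and Obp99a. Obp99a was at 171, 170 and 103 CPM in amos discs, against 410, 376 and 629 CPM in wild-type discs (log2 fold change -1.66, standard error 0.27, adjusted p = 0.0156). The Obp99a call was lost without amos 1 (adjusted p = 0.0614) or wild-type 1 (adjusted p = 0.0532). In adult wild-type antennae this gene was at 0.535 CPM, so its level was higher in discs. Obp56a was at 1.96, 1.93 and 0.997 CPM in amos discs, against 10.2, 7.28 and 13.7 CPM in wild-type discs (log2 fold change -2.66, standard error 0.36, adjusted p = 0.0105). The Obp56a call was kept whichever library was left out. Of 8 ionotropic receptor genes tested, 1 was higher and 3 lower (50% called, beside 13.2% of all genes). The lower genes were Ir68a, Ir41a and Ir31a, and the last 2 averaged under 1 CPM in both genotypes. With a library left out, Ir68a and Ir31a lost the call in all 6 fits and Ir41a in 5. The higher gene, Ir40a of the humidity-sensing neurons, was at 3.08, 2.27 and 1.76 CPM in amos discs, against 0.289, 0.261 and 0.329 CPM in wild-type discs (log2 fold change 3.01, standard error 0.36, adjusted p = 0.00715).

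Calls were spread unevenly over the chromosomes. Among genes of the X chromosome, 103 of 1415 tested were called (7.28%), against 217 of 1515 on 2L (14.3%), 272 of 1698 on 2R, 243 of 1698 on 3L (14.3%) and 282 of 2093 on 3R (13.5%). On chromosome 4, 4 of 82 genes were called. On the Y chromosome only 2 genes were tested, and both were called lower in amos discs (median log2 fold change -6.86). Arms were read from the BDGP6.54 annotation by gene identifier, and the 395 tested genes with no entry there had 11.4% called.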

How the data were processed

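RNA was taken from 3 amos and 3 wild-type larval antennal disc samples. The authors deposited raw counts per gene for each library, made from stranded mRNA libraries. Per the submitters' processing notes they used cutadapt 1.2.1, TopHat2 2.0.9, HTSeq 0.5.4p3 and the BDGP5 build. The study's methods name a later release for the adult antennae, so no coordinates are given, and chromosome arm, strand and exon length were taken by gene identifier from the BDGP6.54 annotation. How HTSeq handled strand is not given in the sources used here, and antisense or overlapping genes and near-identical paralogues are uncertain. The files hold 15682 genes, and 5 lines for unassigned reads were left out.

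The counts were tested with edgeR 4.0.16 in R 4.3.3 (TMM, filterByExpr, quasi-likelihood test, Benjamini-Hochberg adjustment). Standard errors are the log2 fold change over the square root of the test's F. The test was checked on simulated counts. CPM values use reads counted on genes, in Python 3.11.15. Alternatives were DESeq2 1.42.0, other scalings and filters, all 12 libraries, each library left out, a replicate block, marker sums as covariates and a length trend. The narrower marker sums, the eye sum without ey and toy, centring of the length trend and the filter on adult levels were chosen after seeing the data.

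The comparison and the 50 gene lists were chosen with earlier results of these data known. Genes were named by rule: the 15 largest increases and decreases among called genes with no overlap whose higher genotype averaged 50 counts or more, up to 4 called members per list at that count, amos, ato and lz, up to 4 markers per tissue that reach 10 CPM, and the mitochondrial genes. Other members were named after their values were seen. Of the list entries, 78 were not matched to the files and were not analysed here.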

Additional observations from a re-analysis of the deposited data

How the results depend on the processing

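Counts of higher and lower genes depended on the fit. With 1 library left out, the number of higher genes ranged from 90 to 715 and that of lower genes from 111 to 661, beside 585 and 591. DESeq2 with its size factors called 991 higher and 1113 lower genes, and the fit over all 12 libraries 993 and 1067. Scaling on ribosomal protein genes gave 216 higher genes. Beside the fat body, muscle and eye marker sums there were 99, 282 and 4 higher and 153, 263 and 7 lower genes. With the narrower sums, 170 were higher and 203 lower beside the 6 fat body genes, and 46 higher and 60 lower beside the 5 eye genes. Beside the eye markers without ey and toy, 65 were higher and 94 lower. Removal of the length trend left 389 lower genes. Total count scaling, no filter, at least 10 counts in every library, the 8 muscle genes, the length trend centred on 0 in each library and the filter on adult levels kept both counts within 1.5 times. With the replicate block, 768 genes were higher and 711 lower, and 5 hemocyte markers and spok were called higher. The discs share the numbers 1 and 2 only, and nothing in the labels says that a number marks a shared day or animal. The main test therefore did not pair them. Same-numbered libraries deviated from their group means in opposite directions (correlations -0.23 and -0.20). With 3 libraries in each mean, such values cannot decide whether the numbers pair samples. None of the 114 called genes that were named reversed in any fit. They were chosen as called and their groups did not overlap, so reversals were unlikely from the start. Of the 114, 9 kept their call in all fits run on them. Beside the eye marker sum 9 of the 114 kept it, and 40 beside that sum without ey and toy. The causes were not tested. Depth limits the genes near the floor of 3 counts, where fold changes are bounds.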
